A study of Mus musculus with 6 samples.

Results

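The SLC25 mitochondrial carriers were followed in the epididymal white fat pad (eWAT, a visceral fat depot of male mice) of mice with and without extra Blnc1, a long noncoding RNA of fat cells. A gene was taken as a member when its symbol was Slc25a and a number and a row of the array table named that gene alone. This gave 46 genes out of 22180 genes with a row of their own, and each of the 46 had exactly 1 such row. Family members under other names, among them Ucp1 and Ucp3, are given apart, and counts and shares of the family cover the 46 only. WT arrays (WT 1 to WT 3) came from wild-type mice and Tg arrays (Tg 1 to Tg 3) from mice carrying an adipose-specific Blnc1 transgene, 3 arrays per genotype. All animals were male C57BL/6 mice aged 8 months. Both genotypes had eaten the high-fat diet D12492 for 21 weeks, so no array shows a mouse kept off this diet. The promoter that drives the transgene is not given in the sources used here, and the transgene's own level was not analysed here. Replicates are labelled as biological, and p-values measure the spread between these samples only.

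SLC25 proteins are a large family of solute carriers and sit, with few exceptions, in the inner mitochondrial membrane. Most of them exchange a solute of the matrix for a solute of the cytosol: ADP and ATP, phosphate, citrate and other acids of the citrate cycle, amino acids, acylcarnitines, coenzymes and metal ions. In white fat cells the exported citrate supplies the acetyl-CoA for fatty acid synthesis, and malate and aspartate carriers move reducing equivalents. In thermogenic fat the uncoupling protein Ucp1, which shares the family fold, lets protons flow back across the membrane.

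Values are log2 signals of 41345 rows. Array medians were 2.68, 2.75 and 2.72 on the WT arrays and 2.64, 2.67 and 2.64 on the Tg arrays, so every Tg median lay below every WT median. Correlations between arrays ran from 0.979 to 0.990 across rows, which are not independent replicates. Signals of different genes come from different probes and were not set against each other. In the tissue check, 15 of the 16 white adipocyte genes listed were measured, with mean levels from 9.50 to 9.81 in WT arrays and from 9.82 to 10.2 in Tg arrays, and all 15 were higher in Tg. Of the 9 epididymis genes measured, the mean level was 6.53 in Tg 2 and between 1.02 and 1.6 in the other arrays, and all 9 had a higher Tg mean. Pax8, Cdh1 and Defb42, genes of reproductive tract epithelium picked after their values were seen, were high in WT 2, WT 3 and Tg 2, with Defb42 at 4.37, 5.67 and 5.64 there and between 0.93 and 1.20 in WT 1, Tg 1 and Tg 3. Some values are therefore also given with only WT 1, Tg 1 and Tg 3, a comparison added after seeing the data that rests on 1 WT mouse. Not every value that moved is given this way. Where 3 values of a genotype are listed, they stand in the order of arrays 1 to 3.

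Across the 46 carriers, differences between the genotypes were small and ran both ways. Of the 46 carriers, 27 were higher and 19 lower in Tg, and the differences, Tg minus WT on the log2 scale, lay between -0.33 and 0.59 with a median of 0.03, against -0.01 over all rows. The share higher was 58.7%, where 47.2% of all rows were higher. When arrays were centred on their medians the share was 71.7%, against 60.2% of all rows, and the median difference of all rows moved to 0.05.

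No carrier passed the threshold, an adjusted p of 0.05 or below by Benjamini-Hochberg over all rows of the limma fit. The adjusted p of the 46 ran from 0.362 to 0.984, and 0 of 41345 rows passed (0%). At an unadjusted p under 0.05 limma gave 4 carriers, Slc25a42, Slc25a23 and Slc25a10 higher and Slc25a45 lower in Tg, or 8.70% of the family beside 10.3% of all rows (4.43% higher and 5.88% lower). The 3 Tg arrays were all higher than the 3 WT arrays in 5 carriers and all lower in 3, or 17.4% beside 16.7% of all rows (7.36% above and 9.35% below). Both shares of the family are thus near those of the whole table. With 3 arrays per genotype, the smallest 2-sided p of an exact permutation test is 0.1.

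**Figure D1:**
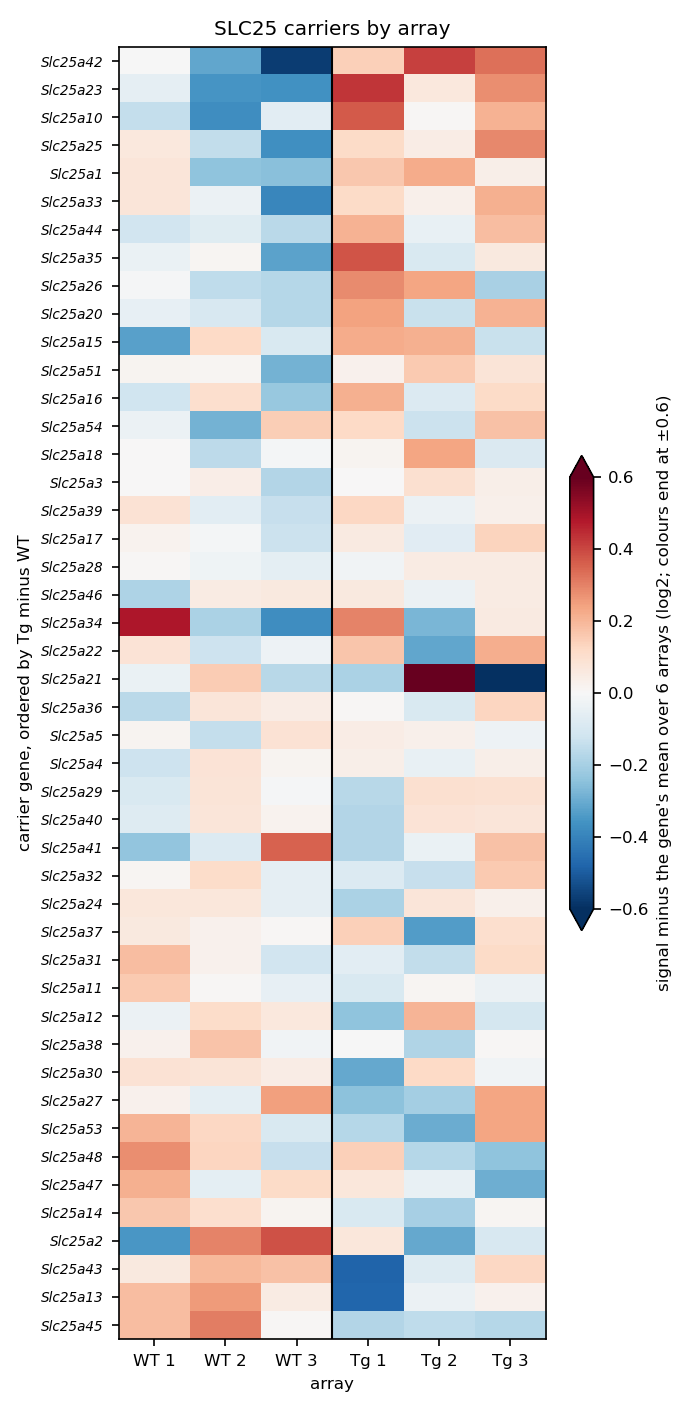
Signal of each of the 46 carriers on each array minus that carrier's mean over the 6 arrays (log2, colour), WT arrays left of the line and Tg arrays right of it, genes ordered by Tg minus WT from 0.59 at the top to -0.33 at the bottom. Slc25a21 is the row with the widest spread, from 1.65 in Tg 3 to 3.23 in Tg 2.

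Slc25a42, the carrier that brings coenzyme A into mitochondria in exchange for adenine nucleotides, had the largest difference of the 46 carriers. Its signal was 6.00, 5.69 and 5.43 on the WT arrays and 6.14, 6.41 and 6.33 on the Tg arrays. Every Tg array lay above every WT array, with WT 1 close to Tg 1 and WT 3 far below the rest. The means were 6.29 ± 0.14 in Tg and 5.70 ± 0.28 in WT (SD, n = 3), a difference of 0.59 ± 0.17 (SE; 1.51-fold), with an adjusted p of 0.364 in limma. With only WT 1, Tg 1 and Tg 3 the difference was 0.24.

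Slc25a23, a calcium-regulated exchanger of ATP-Mg for phosphate that sets the adenine nucleotide pool of the matrix, was next. It read 8.22, 7.92 and 7.91 on the WT arrays and 8.70, 8.33 and 8.55 on the Tg arrays. The groups did not overlap, and WT 1 and Tg 1 were the highest of their groups. Its difference was 0.52 ± 0.14 (SE; 1.43-fold; limma adjusted p = 0.362), and 0.41 with only WT 1, Tg 1 and Tg 3.

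Slc25a10, the dicarboxylate carrier, exchanges malate and succinate for phosphate and is known to be abundant in white fat. Its signal was 5.75, 5.52 and 5.83 on the WT arrays and 6.26, 5.90 and 6.10 on the Tg arrays. The groups were apart, though Tg 2 lay close above WT 3. Mean signal was 6.08 ± 0.18 in Tg and 5.70 ± 0.16 in WT (SD, n = 3), a difference of 0.39 ± 0.14 (SE; 1.31-fold; limma adjusted p = 0.439). In the 3 arrays with little tract signal it was 0.43.

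Slc25a45, a carrier that the substrate groups used here leave without a settled cargo, had the largest difference of the 46 in the other direction. The WT arrays read 7.12, 7.24 and 6.94, and the Tg arrays 6.76, 6.78 and 6.76. The Tg arrays lay together, below a wider WT group. Means were 6.76 ± 0.01 in Tg and 7.10 ± 0.15 in WT (SD, n = 3), and WT was 1.26-fold higher (difference -0.33 ± 0.11 SE; limma adjusted p = 0.411). With only WT 1, Tg 1 and Tg 3 the difference was -0.36.

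**Figure D2:**
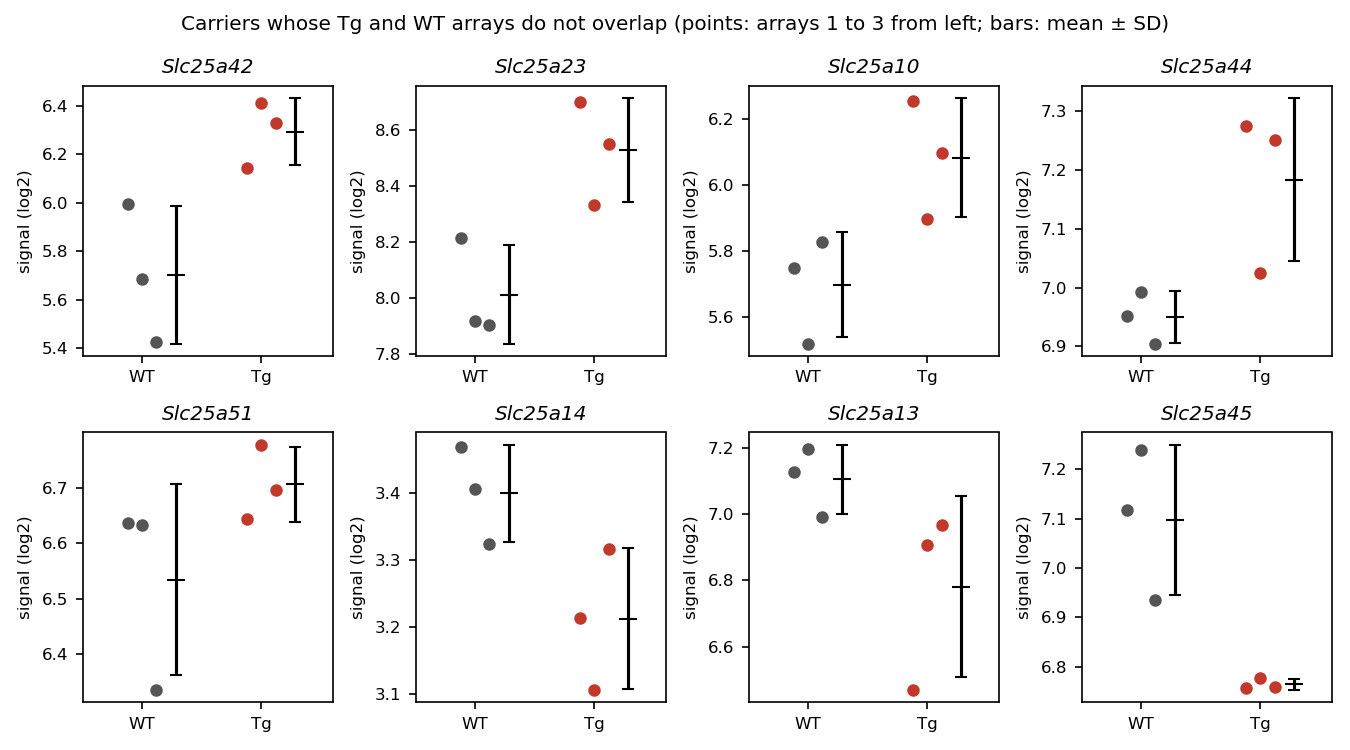
Signal (log2) of the 8 carriers whose genotypes did not overlap, with one point per array, arrays 1 to 3 from left, and bars for the mean and SD of 3 arrays; each panel has its own axis that does not start at 0. In Slc25a51 and Slc25a14 the closest WT and Tg arrays differ by little, and in Slc25a45 the Tg arrays lie within 6.76 to 6.78.

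The DNA before the start sites of these 4 genes is shown because they were the members with the smallest p. Each line holds the 250 bases before the farthest upstream RefSeq start of the gene (GRCm38.p6), 5′ to 3′ on the gene's strand. Capitals mark matches, on either strand, to any of 5 motifs. They are the CCAAT box (CCAAT), the GC box (GGGCGG), the nuclear receptor hexamer (AGGTCA), the E-box (CACGTG) and the EBF site core (CCCNNGGG). The hexamer is only a part of a full nuclear receptor site.
Slc25a42, chr8:70212282-70212531, minus strand: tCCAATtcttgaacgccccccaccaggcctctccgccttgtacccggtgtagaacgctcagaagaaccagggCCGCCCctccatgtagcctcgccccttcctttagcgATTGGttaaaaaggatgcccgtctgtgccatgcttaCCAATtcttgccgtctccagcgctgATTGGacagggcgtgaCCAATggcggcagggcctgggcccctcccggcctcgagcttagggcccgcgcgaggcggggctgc
Slc25a23, chr17:57059864-57060113, minus strand: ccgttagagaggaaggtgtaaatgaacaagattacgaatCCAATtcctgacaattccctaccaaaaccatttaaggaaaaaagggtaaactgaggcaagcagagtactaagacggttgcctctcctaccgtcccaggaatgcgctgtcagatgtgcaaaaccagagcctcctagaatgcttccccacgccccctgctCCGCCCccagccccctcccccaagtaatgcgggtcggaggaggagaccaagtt
Slc25a10, chr11:120491587-120491836, plus strand: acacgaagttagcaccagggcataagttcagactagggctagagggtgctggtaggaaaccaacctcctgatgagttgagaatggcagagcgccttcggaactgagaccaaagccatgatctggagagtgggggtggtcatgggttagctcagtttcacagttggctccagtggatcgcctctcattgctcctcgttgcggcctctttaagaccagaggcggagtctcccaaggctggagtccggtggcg
Slc25a45, chr19:5877572-5877821, plus strand: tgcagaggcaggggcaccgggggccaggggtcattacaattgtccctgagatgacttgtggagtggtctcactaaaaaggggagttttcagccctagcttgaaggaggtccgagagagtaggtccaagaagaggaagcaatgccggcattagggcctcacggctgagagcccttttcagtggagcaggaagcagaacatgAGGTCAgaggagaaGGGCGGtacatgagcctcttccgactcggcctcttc

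The Slc25a42 window held 5 CCAAT boxes beside 1 GC box, and 63 of 27025 RefSeq promoters, or 0.233%, held 5 or more. Slc25a23 held 1 CCAAT box and 1 GC box, Slc25a45 a nuclear receptor hexamer and a GC box, and Slc25a10 held no match to these letters. Windows were found for 36 of the 46 carriers. A GC box stood in 24 of the 36 (33% of all promoters) and a CCAAT box in 16 (34.5% of all promoters). The E-box was in 6 windows, those of Slc25a1, Slc25a13, Slc25a14, Slc25a31, Slc25a33 and Slc25a36 (6.04% of all promoters), and the EBF core in 6, those of Slc25a13, Slc25a16, Slc25a22, Slc25a29, Slc25a36 and Slc25a40 (11.6%). The nuclear receptor hexamer was in 4, those of Slc25a34, Slc25a39, Slc25a45 and Slc25a47 (13.8%). The median GC content of the carriers' windows was 58.6%, against 52% over all promoters, and the part of base composition in the GC box count was not tested. Matches describe letters in a window and do not show that a factor binds.

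Among the carriers of energy currency, the main ADP/ATP exchangers were level between the genotypes. Slc25a5, the ADP/ATP exchanger of most tissues, read 10.00, 9.84 and 10.08 on the WT arrays and 10.03, 10.02 and 9.96 on the Tg arrays (difference 0.03 ± 0.10 SE). Slc25a4, the isoform known from heart and muscle, read 8.52, 8.72 and 8.65 in WT and 8.68, 8.59 and 8.67 in Tg (0.02 ± 0.10). Over all 6 arrays the groups overlapped in each gene, and both differences were smaller than their SE. With only WT 1, Tg 1 and Tg 3, Slc25a4 was at 0.16 and Slc25a5 at -0.0085. Slc25a31, the isoform known from germ cells, was among the 8 carriers whose mean lay below 2.67, the median of all rows, and differed by -0.06. Slc25a3, which brings in the phosphate for ATP synthesis, read 7.91, 7.94 and 7.73 in WT and 7.91, 8.00 and 7.94 in Tg (0.09 ± 0.10), with overlapping groups.

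The other exchangers of ATP-Mg for phosphate overlapped between the genotypes. Slc25a25, a calcium-regulated relative, read 4.78, 4.57 and 4.35 on the WT arrays and 4.83, 4.76 and 5.01 on the Tg arrays. Only Tg 2 and WT 1 crossed, at 4.76 and 4.78. The difference was 0.30 ± 0.14 (SE; limma adjusted p = 0.526), 0.19 without WT 3 and 0.14 with only WT 1, Tg 1 and Tg 3. Slc25a24 differed by -0.06 and Slc25a41, a dim row, by -0.02, and both became positive with arrays centred on their medians, at 0.010 and 0.041.

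Carriers of citrate, dicarboxylates and oxoacids were higher in 3 of 4 genes, with a median difference of 0.16. Slc25a1 is the citrate carrier, which exports citrate in exchange for malate. Its signal was 9.53, 9.21 and 9.20 on the WT arrays and 9.62, 9.67 and 9.49 on the Tg arrays. The groups overlapped through WT 1, which lay above Tg 3, and the Tg minus WT value was 0.28 ± 0.13 (SE; limma adjusted p = 0.519). Against WT 1 alone it was 0.02 over Tg 1 and Tg 3. Slc25a11, the 2-oxoglutarate/malate exchanger of the malate-aspartate shuttle, read 7.69, 7.54 and 7.49 in WT and 7.44, 7.55 and 7.50 in Tg (-0.08 ± 0.10), with overlapping groups. Slc25a21, the 2-oxoadipate carrier, was a dim row that spanned 1.58 over the 6 arrays, more than any other member, and differed by 0.03 with its sign turning to -0.11 when arrays were weighted.

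Amino acid carriers ran both ways, 5 of 9 higher and 4 lower, with a median of 0.01. Slc25a44, the carrier of branched-chain amino acids described in brown fat, read 6.95, 6.99 and 6.90 on the WT arrays and 7.28, 7.02 and 7.25 on the Tg arrays. The groups did not overlap, but Tg 2 lay close to WT 2. It was higher by 0.23 ± 0.11 (SE; limma adjusted p = 0.522), and by 0.31 with only WT 1, Tg 1 and Tg 3. Slc25a13, known as citrin, imports glutamate in exchange for aspartate under control by calcium. It read 7.13, 7.20 and 6.99 in WT and 6.47, 6.91 and 6.97 in Tg. All Tg arrays lay below all WT arrays, by little in Tg 3 and by far in Tg 1. Its difference was -0.32 ± 0.16 (SE; limma adjusted p = 0.536), and -0.17 without Tg 1.

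The second aspartate/glutamate carrier, Slc25a12, differed by -0.09 with overlapping groups, from 8.39 to 8.84 within Tg alone. The glutamate carriers Slc25a22 and Slc25a18 differed by 0.05 and 0.11, the second at a signal below the median row. Of the ornithine carriers, Slc25a15 was at 0.20 and the dim Slc25a2 at -0.22. Slc25a29, a carrier of basic amino acids with a dim row, was at 0.01, and Slc25a38, the glycine carrier used for heme synthesis, was at -0.12. None of these 6 had groups apart. Single arrays weighed on them: Slc25a15 was at 0.086 without WT 1, Slc25a18 at 0.017 and Slc25a38 at -0.056 without Tg 2, and Slc25a2 at -0.086 without WT 3 and 0.33 with only WT 1, Tg 1 and Tg 3.

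Slc25a20, which brings acylcarnitines to the matrix for fatty acid oxidation, read 7.55, 7.51 and 7.43 on the WT arrays and 7.84, 7.47 and 7.81 on the Tg arrays. Tg 1 and Tg 3 lay above every WT array and Tg 2 among them. The difference was 0.21 ± 0.13 (SE; limma adjusted p = 0.621), 0.14 without Tg 1 and 0.28 with only WT 1, Tg 1 and Tg 3.

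Carriers of nucleotides, coenzymes and vitamins were higher in 7 of the 8 measured, with a median difference of 0.17. Groups were apart in 2 of them, Slc25a42 and Slc25a51, beside 16.7% of all rows (7.36% above and 9.35% below). Slc25a51 imports NAD. Its closest WT and Tg arrays both read 6.64, WT 3 stood below the rest at 6.34, and the difference was 0.17 ± 0.12 (SE; limma adjusted p = 0.658) with WT 3, 0.07 without it and 0.035 with only WT 1, Tg 1 and Tg 3. The pyrimidine nucleotide carriers Slc25a33 and Slc25a36 were at 0.24 and 0.03, the first at 0.10 without WT 3 and 0.092 with only WT 1, Tg 1 and Tg 3. Slc25a26, which imports the methyl donor S-adenosylmethionine, was at 0.22 and Slc25a16, a carrier linked to coenzyme A, at 0.16. Without Tg 1 these were 0.13 and 0.098, and with only WT 1, Tg 1 and Tg 3 they were 0.051 and 0.28. Slc25a17, which serves peroxisomes, was at 0.08. Slc25a32, a carrier for folate and flavin, was the lower one at -0.04, which became 0.02 with median centring.

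Iron and glutathione carriers stayed close to 0. The mitoferrins Slc25a28 and Slc25a37, which import iron, were at 0.05 and -0.06, and the glutathione carriers Slc25a39 and Slc25a40 at 0.08 and -0.01. The signs of Slc25a37 and Slc25a40 turned with median centring, to 0.0026 and 0.053. Slc25a28 was the steadiest member, with all 6 arrays between 7.41 and 7.52. Slc25a46, an outer membrane member that takes part in mitochondrial fission, was at 0.05.

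**Figure D3:**
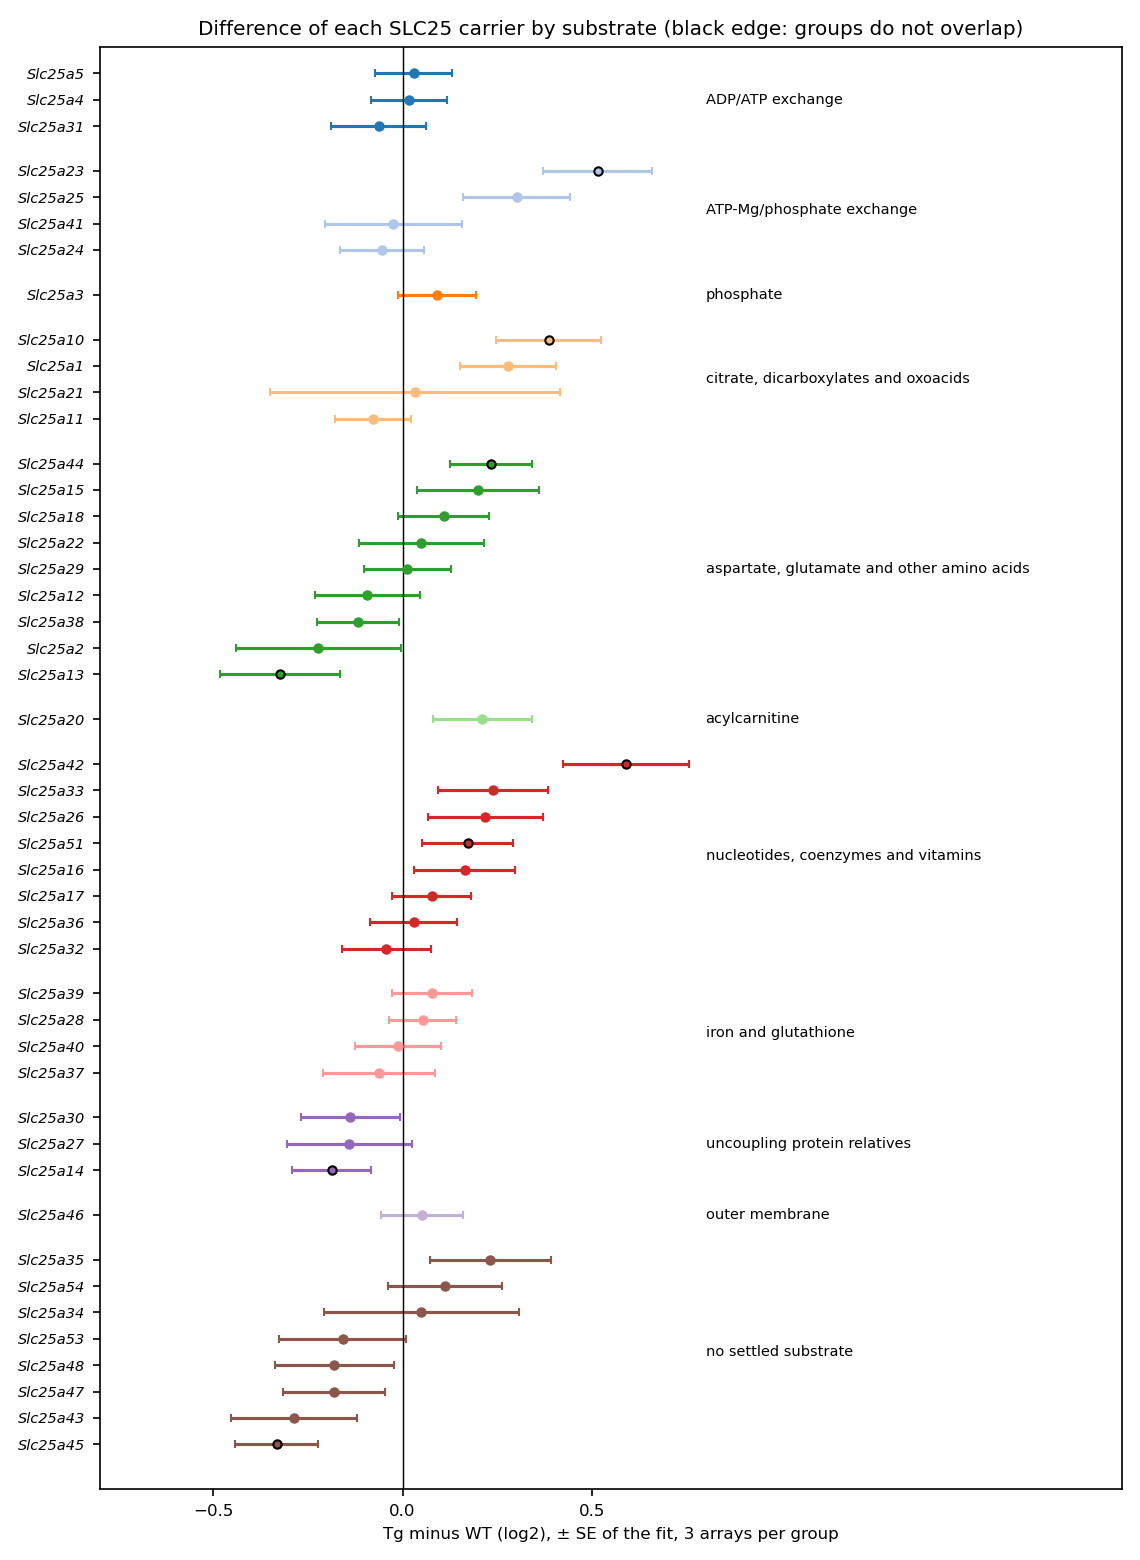
Tg minus WT difference (log2) of each of the 46 carriers with the SE of the limma fit as bars (3 arrays per group), grouped by substrate; a black edge marks carriers whose groups did not overlap. Points of the ADP/ATP, iron and glutathione carriers lie within 0.08 of 0, and those of the uncoupling protein relatives all lie below it, from -0.19 to -0.14.

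The 3 relatives of the uncoupling proteins were all lower in Tg. Slc25a14 was at -0.19 ± 0.10 (SE; limma adjusted p = 0.578) with groups apart by a hair, since WT 3 and Tg 3 both read 3.32. Slc25a27 was at -0.14 and Slc25a30 at -0.14, both with overlapping groups. Without Tg 1 these became -0.053 and -0.019, and Slc25a27 was also at -0.053 without WT 3. With only WT 1, Tg 1 and Tg 3, Slc25a27 was at -0.030, Slc25a30 at -0.25 and Slc25a14 at -0.20. The uncoupling proteins proper differed by more. Ucp1, which dissipates the proton gradient as heat in brown and beige fat, was a low signal in Tg. It read 4.58, 4.05 and 3.34 on the WT arrays and 2.64, 2.34 and 2.35 on the Tg arrays. Its Tg values all lay below 2.67, the median of all rows. Ucp3, known from muscle and brown fat, read 5.05, 4.47 and 4.42 in WT and 5.83, 5.27 and 5.56 in Tg. The groups were apart in both genes, in opposite directions: Ucp1 by -1.55 ± 0.30 (SE; limma adjusted p = 0.326) and Ucp3 by 0.91 ± 0.22 (1.88-fold; limma adjusted p = 0.338). Those values were -2.09 and 0.65 with only WT 1, Tg 1 and Tg 3, and Ucp2 was not analysed here. Of the 8 thermogenic adipocyte genes, Ucp1 among them, 5 were higher and 3 lower in Tg, with a median of 0.10, while with only WT 1, Tg 1 and Tg 3 the count was 1 higher and 7 lower, with a median of -0.24.

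Mtch2, an outer membrane relative that inserts proteins into that membrane, read 10.00, 9.98 and 9.99 on the WT arrays and 10.20, 10.17 and 10.21 on the Tg arrays. The groups were tight and apart. The size was 0.20 ± 0.09 (SE; limma adjusted p = 0.490). Mtch1 was at 0.10 ± 0.15 with overlapping groups.

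Of the carriers without a settled substrate in these groups, 3 of 8 were higher and 5 lower, with a median of -0.17. Beside Slc25a45, the lower ones were Slc25a43 (-0.29), Slc25a47 (-0.18), the dim Slc25a48 (-0.18) and Slc25a53 (-0.16). Each rested in part on 1 array: Slc25a43 was at -0.12 without Tg 1, Slc25a47 at -0.080 without Tg 3, Slc25a48 at -0.085 without WT 1 and Slc25a53 at -0.047 without Tg 2. The higher ones were Slc25a35 (0.23), the dim Slc25a54 (0.11) and Slc25a34 (0.05), and only Slc25a45 had groups apart. Slc25a35 was at 0.10 without Tg 1, and Slc25a54 at -0.0011 without WT 2. A row that names both Rangrf and Slc25a35, which was not taken as a member, was at 0.32 ± 0.16 (SE; limma adjusted p = 0.551).

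In the RefSeq gene table, 4 pairs of carriers lie next to each other with no coding gene between them. On chromosome 17 Slc25a23 (0.52) neighbours Slc25a41 (-0.02), and on chromosome X Slc25a5 (0.03) neighbours Slc25a43 (-0.29). Slc25a24 (-0.06) and Slc25a54 (0.11) share chromosome 3, and Slc25a29 (0.01) and Slc25a47 (-0.18) chromosome 12. No pair had both genes on the same side of 0 by more than 0.1.

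The enzymes that make or use the carriers' cargo were set beside them, 16 of the 18 listed being measured. Of these 13 were higher and 3 lower in Tg, with a median of 0.23, and none passed the threshold. At an unadjusted p under 0.05 limma gave 6 higher and 1 lower, beside 4.43% and 5.88% of all rows, in a list chosen with earlier results of these data known. Along the citrate route, Pcx, the pyruvate carboxylase that refills the citrate cycle, was at 0.55 ± 0.15 (SE; limma adjusted p = 0.361) and Cs, citrate synthase, at 0.16 ± 0.09. After Slc25a1 (0.28), Acly, which splits citrate in the cytosol, was at 0.16 ± 0.12. Me1, the malic enzyme that yields NADPH, read 10.26, 10.01 and 9.83 on the WT arrays and 10.39, 10.59 and 10.55 on the Tg arrays. Its groups were apart, by 0.48 ± 0.14 (SE; limma adjusted p = 0.373), and by 0.21 with only WT 1, Tg 1 and Tg 3, where Acly was at -0.021.

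Along the malate-aspartate shuttle, the carriers Slc25a11, Slc25a12 and Slc25a13 were at -0.08, -0.09 and -0.32. Got1, the cytosolic aspartate aminotransferase, read 7.56, 7.63 and 7.77 on the WT arrays and 7.11, 7.40 and 7.36 on the Tg arrays. All Tg arrays lay below all WT arrays, by -0.36 ± 0.12 (SE; limma adjusted p = 0.417). Got2, the mitochondrial form, was at -0.26 ± 0.14, while a dimmer second row of it read 0.16 ± 0.23, and it was at -0.13 without WT 3. The malate dehydrogenases Mdh1 and Mdh2 were at 0.15 ± 0.11 and 0.18 ± 0.11, the first at 0.068 without Tg 1 and the second at 0.079 with only WT 1, Tg 1 and Tg 3. Thus 5 of the 7 shuttle genes were lower and 2 higher. Of the lower ones, Slc25a11 and Slc25a12 differed by less than their SE (0.10 and 0.14) and had overlapping groups. Gpd1, of the alternative glycerol 3-phosphate shuttle, was at 0.50 ± 0.17 (0.93 ± 0.22 in its dimmer row) and its mitochondrial partner Gpd2 at -0.12 ± 0.12, or -0.029 without WT 3.

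Around Slc25a20 (0.21), Cpt1a, which makes acylcarnitines at the outer membrane, was at 0.02 ± 0.09, Cpt2, which takes them apart in the matrix, at 0.27 ± 0.11 and Crat, carnitine acetyltransferase, at 0.28 ± 0.12. Around Slc25a44 (0.23), the branched-chain aminotransferase gene Bcat2 was at 0.33 ± 0.13 and the dehydrogenase subunit genes Bckdha and Bckdhb at 0.29 ± 0.17 and 0.55 ± 0.13 (SE; limma adjusted p = 0.332 for Bckdhb). Without Tg 1, Bcat2 was at 0.21 and Bckdha at 0.15, and with only WT 1, Tg 1 and Tg 3 Crat was at 0.11.

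**Figure D4:**
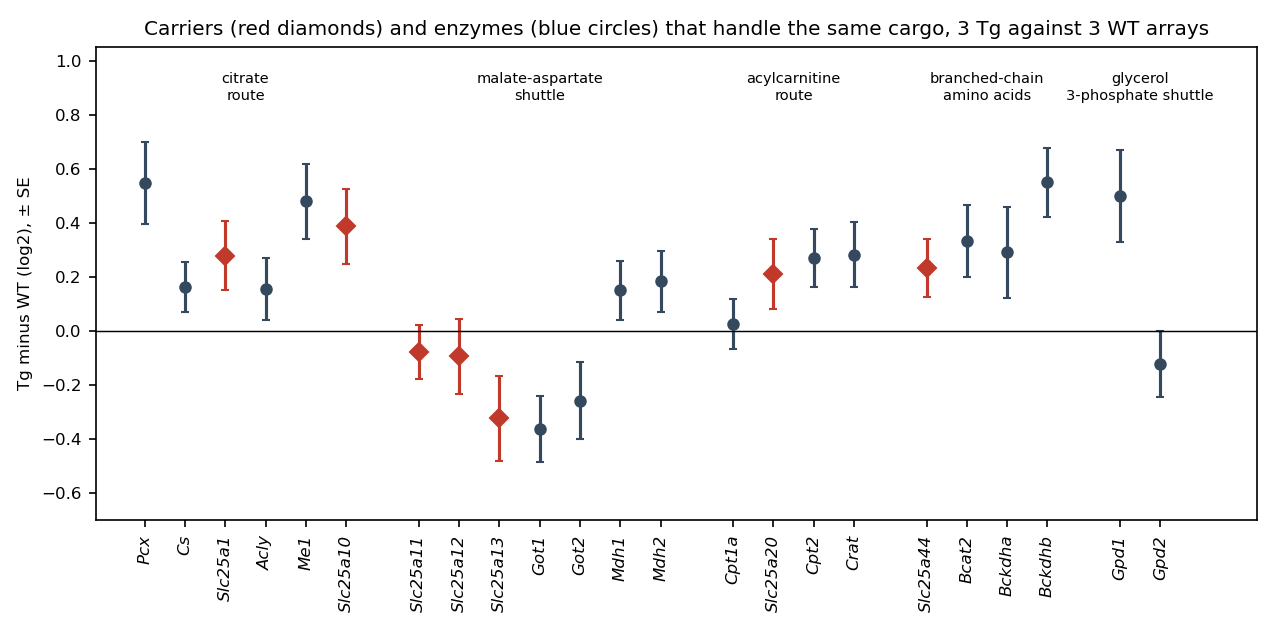
Tg minus WT difference (log2) with the SE of the limma fit as bars, 3 arrays per group, for carriers (red diamonds) and enzymes (blue circles) ordered along 5 metabolic routes. Carriers and enzymes of the citrate, acylcarnitine and branched-chain routes lie at or above 0.02. The 3 carriers and 2 aminotransferases of the malate-aspartate shuttle lie below 0, with the bars of Slc25a11 and Slc25a12 reaching across 0.

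Carriers reach the inner membrane through TOM70, the small TIM chaperones and the TIM22 complex. Of 10 import genes, 6 were higher and 4 lower, with a median of 0.05. Timm29, a TIM22 subunit, read 5.15, 5.27 and 5.22 on the WT arrays and 5.05, 4.79 and 4.87 on the Tg arrays. Its groups were apart, by -0.31 ± 0.11 (SE; limma adjusted p = 0.427; -0.19 with only WT 1, Tg 1 and Tg 3), and it was the only import gene at an unadjusted p under 0.05. Other mitochondrial transport genes (pyruvate carrier, sideroflexins, porins, calcium and ABC transporters) were higher in 10 of 13, with a median of 0.10, and 17 other mitochondrial genes were higher in 10, with a median of 0.08. In both of these lists limma gave 0 genes past the threshold and 0 at an unadjusted p under 0.05.

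By array, the mean of the 46 carriers relative to its mean over all arrays was 0.014, -0.0040 and -0.070 on the WT arrays and 0.020, -0.0084 and 0.048 on the Tg arrays. The groups overlapped, since Tg 2 lay below WT 1. WT 3 was the lowest WT array in 29 of the 46 carriers, and Tg 2 the lowest Tg array in 23. The white adipocyte genes had a wider course, at -0.03, -0.16 and -0.34 in WT and 0.34, -0.02 and 0.20 in Tg, with a median difference of 0.36. In both lists WT 3 was the lowest of all arrays and Tg 2 the lowest Tg array. Of 11 macrophage genes 10 were lower in Tg (median -0.28), all 8 mast cell genes (median -1.41) and all 7 T cell genes (median -0.93) were lower, and all 8 endothelial genes were higher (median 0.33). Part of this rested on WT 2 and WT 3: with only WT 1, Tg 1 and Tg 3 all 7 T cell genes were higher (median 0.38), 6 of 8 endothelial genes were higher (0.097), and the medians were -0.77 for mast cell, -0.20 for macrophage and 0.26 for white adipocyte genes. The part of these cell types in the carriers' differences was not tested, and in bulk tissue fewer cells of a type and less RNA per cell cannot be told apart.

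**Figure D5:**
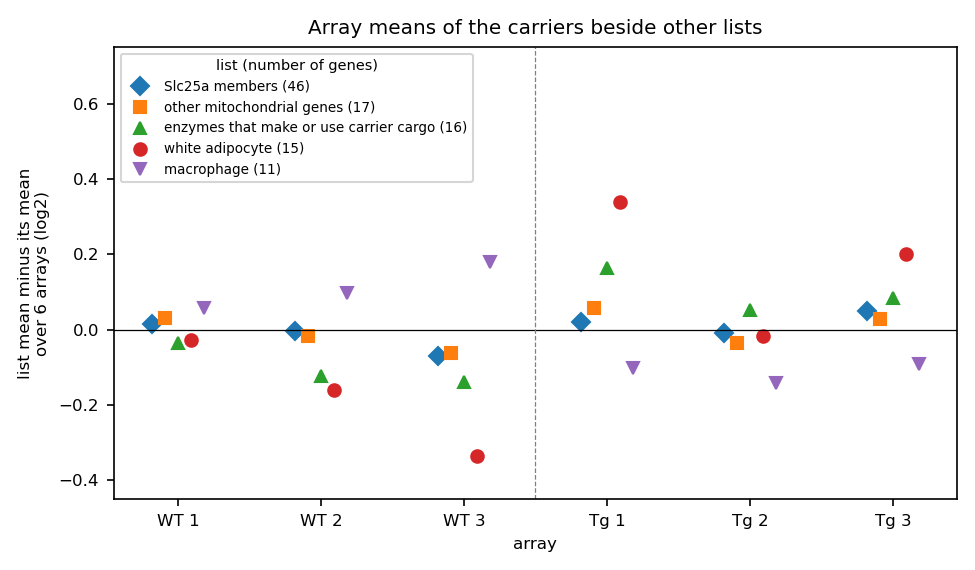
Mean of 5 gene lists on each array relative to the list's mean over all 6 arrays (log2), one symbol per list, with the number of genes in the key. The 46 carriers stay between -0.07 and 0.05, while the white adipocyte genes run from -0.34 in WT 3 to 0.34 in Tg 1.

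The carriers' spread between mice was close to that of the table. For the 38 carriers above the median row, the median SD within a genotype was 0.15 and the median range over the 6 arrays 0.44, against 0.17 and 0.53 for all rows above that median. Of these 38 brighter carriers, 23 were higher and 15 lower in Tg, with a median of 0.05, and the 8 with groups apart were all among them. Of all 20673 rows above that median, 8937 were higher and 11736 lower, with a median of -0.04, and 4578 had groups apart.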

How the data were processed

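The labels describe total RNA of frozen eWAT, extracted with Trizol and biotin-labelled for Affymetrix whole-transcript arrays, 1 array per sample. The authors deposited 1 table of log2 values, made with RMA (background correction, normalization between arrays, summary of probes), and used limma, per the submitters' processing notes; versions, settings and any filter are not given in the sources used here. RMA normalization removes shifts of total RNA and compresses differences of dim rows. No detection calls were used, and the number of arrays limits the precision.

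Rows were named through the platform annotation: 23521 of 41345 rows name 1 gene, 1814 several and 16010 none. For each gene the row of highest mean over the 6 arrays was used. Tg was compared with WT in limma 3.58.1 (R 4.3.3; lmFit and eBayes, 2-sided, no filter, no covariate), with Benjamini-Hochberg adjustment over all rows and a threshold of 0.05. The procedure was tested on simulated data whose planted changes were larger than any carrier's difference, so differences of the carriers' size were not tested this way. The members, substrate groups and gene lists were chosen with earlier results of these data known.

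Every carrier is named. Array values are printed for carriers with groups apart at an unadjusted p under 0.05 and for Slc25a1, Slc25a3, Slc25a4, Slc25a5, Slc25a10, Slc25a11, Slc25a13, Slc25a20, Slc25a25, Slc25a42 and Slc25a44. Of the related lists, up to 4 genes with groups apart at an unadjusted p under 0.05, the uncoupling proteins, Mtch1 and Mtch2 were named by rule, and other enzymes for their place beside a carrier, after their values were seen. The lists covered import, other transport, cargo enzymes, other mitochondrial genes and markers of white and thermogenic adipocytes, macrophages, mast cells, T cells, endothelium, epididymis, sperm cells (3 of 8 higher, median -0.04) and skeletal muscle (5 of 6 higher, median 0.13).

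Alternatives left out each array, added a replicate block, changed the normalization, the filter, the variance model, the weights or the rows averaged. A comparison of WT 1, Tg 1 and Tg 3 was added after seeing the data. Promoters are RefSeq windows of GRCm38.p6, searched over 250 bases before the start.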

Additional observations from a re-analysis of the deposited data

How the results depend on the processing

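In all 15 other settings 0 rows passed the threshold in limma, and 24 to 33 of the 46 carriers were higher in Tg, or 23 of the 38 left when dim rows were dropped. Of the carriers, 27 kept their direction in every setting and 19 did not, 12 of them outside the settings that left out 1 array. The count with groups apart was 9 to 19 when 1 array was left out (15 without WT 1, 19 without Tg 2, 16 without Tg 3) and 34 with only WT 1, Tg 1 and Tg 3, where fewer arrays make separation easier. The share of all rows with groups apart is not given here for the settings with fewer arrays. Whether the carriers' counts there differ from that share was not tested. The median difference of the carriers was 0.10 with each array centred on its median and 0.02 to 0.06 otherwise. The replicate numbers did not pair the arrays (correlation of deviations -0.04, 0.01 and -0.04), and with the replicate block 27 carriers were higher, 8 had groups apart and the median was 0.03.

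Some small differences changed sign. Median centring moves the difference of every row by the same amount, and the median over all rows went from -0.01 to 0.05. With it, Slc25a24 was at 0.010, Slc25a31 at 0.0014, Slc25a32 at 0.022, Slc25a37 at 0.0026, Slc25a40 at 0.053 and Slc25a41 at 0.041. In the other settings the cause of sign changes was not tested. Slc25a40 was 0.0084 with quantile normalization and 0.016 with cyclic loess, and array weights gave Slc25a21 -0.11 and Slc25a41 0.019. With only WT 1, Tg 1 and Tg 3 the values were Slc25a2 0.33, Slc25a5 -0.0085, Slc25a18 -0.040, Slc25a21 -0.39, Slc25a32 0.025, Slc25a34 -0.31, Slc25a37 0.061, Slc25a39 -0.010, Slc25a40 0.027, Slc25a41 0.24, Mtch1 -0.0046, Acly -0.021 and Cpt1a -0.039. Among values that kept their sign there, Slc25a15 was at 0.37, Slc25a36 at 0.23, Slc25a46 at 0.24 and Slc25a11 at -0.22. Slc25a47 and Slc25a48 were both at -0.33, while Slc25a3 was at 0.019 and Slc25a28 at 0.0086. Leaving out 1 array gave ranges across 0 for Slc25a4 (-0.040 to 0.063), Slc25a5 (-0.036 to 0.079), Slc25a12 (-0.22 to 0.0044), Slc25a21 (-0.41 to 0.38), Slc25a22 (-0.048 to 0.22), Slc25a24 (-0.11 to 0.025), Slc25a29 (-0.032 to 0.099), Slc25a31 (-0.14 to 0.012), Slc25a32 (-0.13 to 0.016), Slc25a34 (-0.12 to 0.31), Slc25a36 (-0.043 to 0.084), Slc25a37 (-0.15 to 0.090), Slc25a40 (-0.057 to 0.073), Slc25a41 (-0.15 to 0.15), Slc25a46 (-0.029 to 0.091), Slc25a54 (-0.0011 to 0.21), Cpt1a (-0.0068 to 0.046) and Mtch1 (-0.029 to 0.19).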
